A study of Mus musculus with 6 samples.

Results

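Granulocyte/macrophage progenitors (GMPs) of mice that lack both IRF4 and IRF8 (IRF4/8DKO, here DKO) were compared with those of wild-type (WT) mice. The comparison rests on 4 of the 6 arrays of the study, chosen by their titles: 2 of DKO and 2 of WT. The other 2 arrays, of IRF8 KO cells, entered the fit to estimate the spread, and their values are given only where stated. They came from a female of 12 weeks (array 1) and a male of 22 weeks (array 2). All mice were of the strain BL6. WT array 1 came from a male of 12 weeks and WT array 2 from a female of 19 weeks, while the DKO arrays came from a male (array 1) and a female (array 2) of 16 weeks. The labels do not say how the null alleles were made, whether littermates were used, or whether cells of several mice were pooled. The sort from bone marrow kept Kit-positive and CD34-positive cells with high FcRII/III, and removed cells with lineage markers, IL-7R or Sca1. The series concerns how the loss of both factors acts together in blood cancers. The p-values measure only the spread between these samples.

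IRF4 and IRF8 are related transcription factors that bind DNA together with partners such as the ETS factor PU.1. In myeloid progenitors IRF8 favours monocyte and dendritic cell fates over the neutrophil fate, while IRF4 is best known in lymphocytes, dendritic cells and macrophages. GMPs sit below the branch at which progenitors of red cells and platelets part from those of granulocytes and monocytes. Eosinophils, basophils and mast cells arise from the same region of the blood tree.

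Values are intensities on a linear scale, and each gene is given as array 1 and then array 2 of a genotype. A log2 fold change is on the scale log2(intensity + 10.5), so changes of dim genes are understated. The gap is the fold, on the same scale, between the nearest arrays of the genotypes, so a gap of 2-fold holds for every DKO array against every WT array. The test is limma over 29783 probe sets with Benjamini-Hochberg adjusted p-values and a threshold of 0.05. Errors are standard errors (SE) with n = 2 arrays per genotype.

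Neither targeted gene could be used to check the labels. For Irf8, the brighter probe set gave 2588 and 3052 for WT against 2611 and 4778 for DKO, and the dimmer one 507 and 704 against 934 and 1900. The Irf4 probe sets read 16.8 to 33.1 in WT and 11.8 to 66.0 in DKO. The labels do not place these probes against the deleted parts of the genes, so the signal checks nothing. Xist and the Y-linked genes Eif2s3y, Kdm5d and Uty matched the labelled sex of every array. The GMP granule genes Mpo, Elane, Prtn3 and Ctsg were bright in all arrays, with Mpo between 12946 and 15417, and none passed the test. Of the gate's own genes, Kit read 2170 and 1680 in WT and 2426 and 1998 in DKO. Cd34, by contrast, read 1747 and 1401 in WT against 590 and 509 in DKO (limma adjusted p = 0.213). Fcgr3, an Fc receptor gene of the same gate, read 1090 and 1259 against 2516 and 5863 (limma adjusted p = 0.271). T and NK cell markers were dim, with a summed intensity over 5 genes of 142 and 166 in WT and 248 and 202 in DKO.

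Of 12 measured monocyte and macrophage markers 4 were higher in the DKO progenitors past the test, as were 2 of 14 chemokine receptor genes (Ccr1 and Ccr2) and 2 of 25 genes of Siglec, CD300 and other paired receptors (Siglece and Cd300lb). Lists can share members, and Ccr2 is counted both as a monocyte marker and as a chemokine receptor. Lower past the test were 3 of 12 eosinophil, basophil and mast cell markers, 3 of 11 megakaryocyte and platelet markers and 2 of 16 GATA and erythro-megakaryocytic factors. None of 6 erythroid markers passed, though Tfr2 and Hbb-b2, outside that list, were lower, as were Cd74, H2-Aa and Ly86. Of 29783 probe sets, 89 passed the test, which is 0.299% of them. Of these, 27 were higher (0.0907%) and 62 were lower (0.208%). All 89 were at least 2-fold apart in every pair of arrays and 85 at least 4-fold, down to gaps of 2.71-fold for the higher and 4.04-fold for the lower ones. The probe sets with 1 gene symbol stood for 24 higher and 43 lower genes. Counting each gene once by its brightest probe set, 54 of 13267 passed (0.407%), 22 higher (0.166%) and 32 lower (0.241%). At an unadjusted p under 0.05 there were 2696 probe sets (9.05%). Of the called probe sets 30.3% were higher, against 42.2% of the 45 called after median centring.

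The calls rest on all 4 arrays. Without any 1 of the 2 WT or 2 DKO arrays no probe set passed in limma, with 1046 to 3774 at an unadjusted p under 0.05, and with sex as a block none passed either, with 2512. Across probe sets the WT arrays correlated at r = 0.968, the closest of the 6 pairs, and the DKO arrays at 0.952. Between genotypes, WT array 2 and DKO array 1 correlated at 0.96, above the DKO pair, and the other pairs at 0.947, 0.929 and 0.903. These points are probe sets and not replicates. For 28 of the 62 lower probe sets the mean in DKO lay at or below 10.5, and for 3 of the 27 higher ones the mean in WT did, so that value sets the size of their changes.

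Beyond the tested calls, the arrays of the genotypes did not overlap for 5461 probe sets that were higher in DKO (18.3%) and 7522 that were lower (25.3%). A gap of at least 2-fold held for 308 higher (1.03%) and 685 lower ones (2.3%), and 904 of these 993 did not pass the test. At 4-fold there were 48 higher and 135 lower, at 8-fold 12 and 42, and at 16-fold 3 and 14. Counted by gene, 177 were 2-fold apart and higher (1.33%) and 246 lower (1.85%). After median centring, which moved the median of all probe sets by 0.22 on the log2 scale, 474 were higher and 485 lower, so the excess of lower probe sets at 2-fold depends on the scaling.

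**Figure D1:**
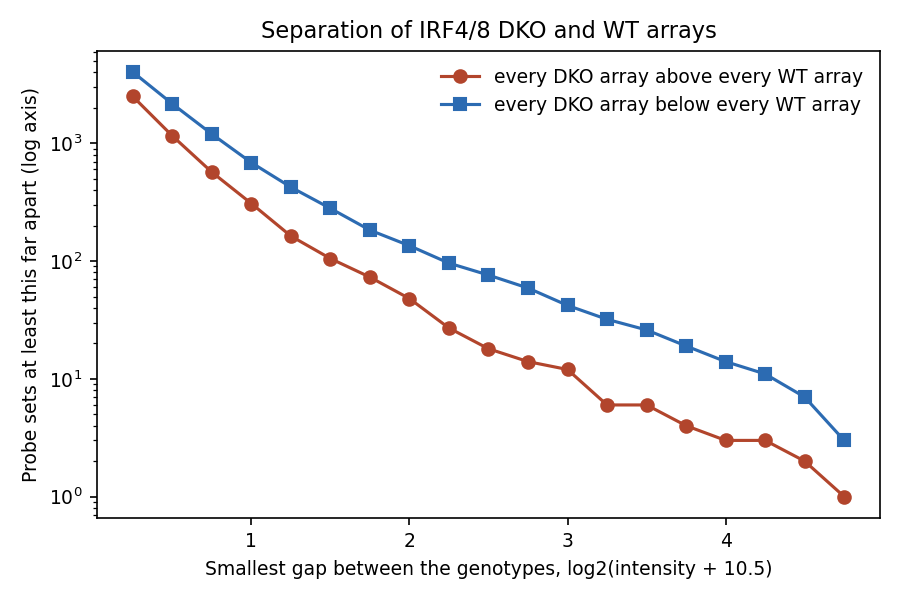
Number of probe sets (log axis) against the smallest gap between any DKO and any WT array, on the log2(intensity + 10.5) scale, for probe sets higher in DKO (circles) and lower in DKO (squares). At a gap of 1, which is 2-fold, there were 308 higher and 685 lower probe sets, and the squares stay above the circles at every gap drawn.

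Chemokine receptor genes were among the widest rises. Ccr1, a receptor for inflammatory chemokines on monocytes and neutrophils, read 4.47 and 33.3 in WT and 1019 and 1172 in DKO. Its second probe set read 17.7 and 16.1 against 318 and 228, so both kept the genotypes at least 8.43-fold apart. The rise was 43.1-fold (log2 fold change 5.43 ± 0.56 SE, n = 2, limma adjusted p = 0.0214). Ccr2, which lets monocytes leave the marrow, read 234 and 457 in WT and 2856 and 3024 in DKO, a rise of 8.73-fold (limma adjusted p = 0.0285). All 4 Ccr2 probe sets were at least 2-fold apart, and 2 passed the test. Over the 14 measured chemokine receptors these 2 were the called ones, where 0.166% of all genes were called higher. The list median was 0.41, against 0.03 over all genes. Without overlap, 5 of the 14 lay higher, against 21.1% of all genes, and 3 lower, against 19.6%.

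Markers of mature monocytes and macrophages lay higher as a list. Of 12 measured members, 4 passed the test, all higher, and 10 did not overlap and were higher, where 21.1% of all genes were. The 4 were Adgre1, Mpeg1, Cd14 and Ccr2, the last also counted among the chemokine receptors. The list median was 1.28 log2 units, and its summed intensity was 12861 and 14601 in WT and 26158 and 34896 in DKO. Adgre1, which codes for F4/80 on macrophages, read 132 and 132 in WT and 1058 and 1406 in DKO (8.62-fold, limma adjusted p = 0.0342). The macrophage perforin gene Mpeg1 read 844 and 809 against 2942 and 4156 (4.19-fold, limma adjusted p = 0.0372). Cd14, the co-receptor for lipopolysaccharide, was dim in WT at 10.3 and 9.72 and read 84.4 and 123 in DKO (5.50-fold, limma adjusted p = 0.0447). The IRF8 KO arrays read 13 and 13.9 for Cd14, a difference from DKO that was not tested here. Called genes varied in this. In the IRF8 KO arrays Tmem178 read 2562 and 2439 and Ly86 4.70 and 3.22, near their DKO values given below. Pf4 read 798 and 394 there, far above its DKO values. Csf1r, the receptor for the macrophage growth factor, read 1490 and 915 against 2276 and 6625 and did not pass (limma adjusted p = 0.28).

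Markers of mature neutrophils had a list median of 0.84 over 14 genes. Only Mmp8, the neutrophil collagenase, passed, with 11.7 and 10.2 in WT and 182 and 595 in DKO (16.0-fold, limma adjusted p = 0.0416). Chil3, a chitinase-like gene, read 855 and 3091 against 7734 and 9598 (limma adjusted p = 0.114). Lcn2, an iron-scavenging granule protein gene, read 41.6 and 320 against 221 and 3212, so its arrays overlapped. Summed over the list, WT array 2 (34552) lay above DKO array 1 (30079), and DKO array 2 (61082) was the highest.

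**Figure D2:**
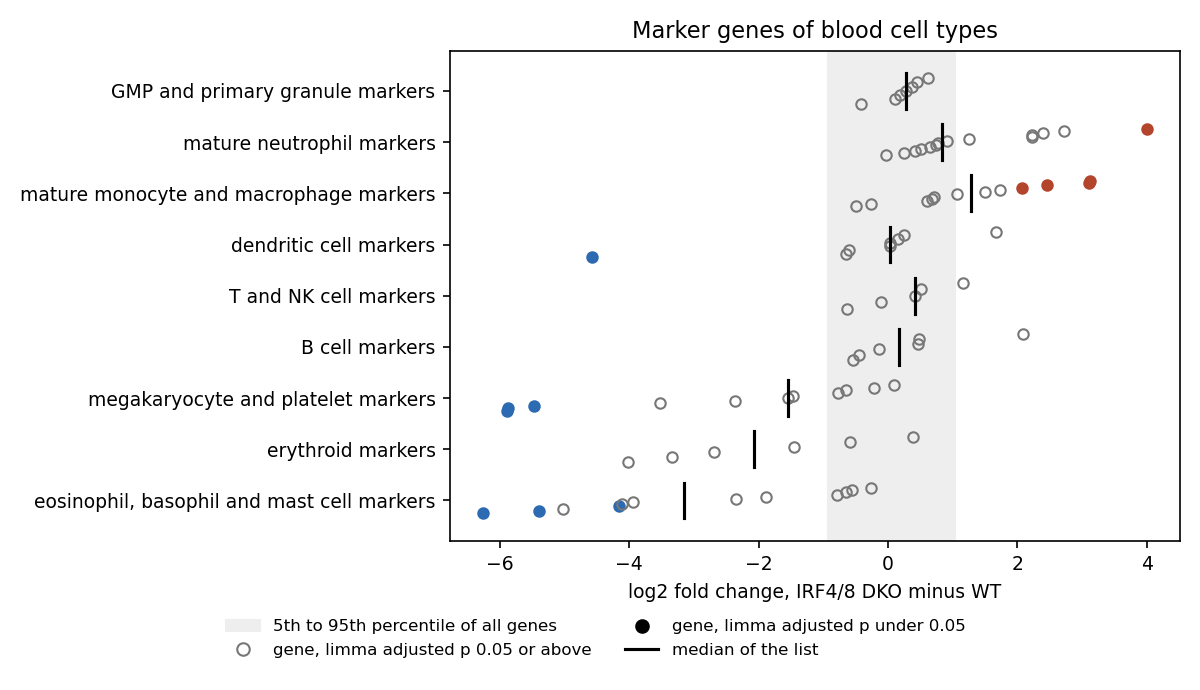
Log2 fold change (DKO minus WT) of each measured marker gene of 9 cell type lists, with filled points for genes past the limma threshold, vertical bars for list medians and a grey band from the 5th to the 95th percentile of all 13267 genes. The eosinophil, basophil and mast cell list has its median at -3.15 and the monocyte and macrophage list at 1.28, while the GMP granule list lies at 0.27.

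Paired receptors, a group that holds both inhibitory and activating members, rose at 2 genes. Siglece, a sialic acid binding receptor of myeloid cells, read 30.2 and 101 in WT and 708 and 1700 in DKO (16.4-fold, limma adjusted p = 0.0416). Cd300lb, an activating receptor of the CD300 family, read 173 and 130 against 862 and 887 (5.51-fold, limma adjusted p = 0.0478). These were the 2 called of 25 measured paired receptors, where 0.166% of all genes were called higher. Without overlap, 14 of the 25 lay higher, against 21.1% of all genes, and 5 lower, against 19.6%. Cd33, another sialic acid binding receptor, read 37.9 and 45.1 in WT and 201 and 354 in DKO, 3.79-fold apart at the nearest arrays, and did not pass (limma adjusted p = 0.0878). Pram1, an adaptor protein of myeloid cells, rose from 968 and 1669 to 4536 and 5480 (limma adjusted p = 0.0447). Among 19 C-type lectins none passed, and 3 were 2-fold apart and higher, where 1.33% of all genes were. Without overlap, 11 of the 19 lay higher and 4 lower, against 21.1% and 19.6% of all genes. Clec4a2, which has an inhibitory motif, read 130 and 235 against 923 and 1004 (limma adjusted p = 0.076), and Clec5a read 69.7 and 350 against 842 and 1952 (limma adjusted p = 0.185).

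Of the complement and clotting genes, 5 of 22 measured were 2-fold apart and higher, where 1.33% of all genes were. F10, which codes for coagulation factor X, rose at 1 of its 3 probe sets, from 67.0 and 110 to 593 and 1265 (9.07-fold, limma adjusted p = 0.0451). The other 2 F10 probe sets were also 2-fold apart. F7, the gene of factor VII, read 37.2 and 64.3 against 361 and 307 (limma adjusted p = 0.0644). Plau, the gene of urokinase, read 184 and 221 against 587 and 631, and its receptor gene Plaur 154 and 191 against 420 and 644, with neither past the test. F5, the factor V gene, was the remaining one. Procr and Vwf, which belong to vessel and platelet biology, were the 2 that lay 2-fold lower, where 1.85% of all genes did. Without overlap, 8 of the 22 lay higher, against 21.1% of all genes, and 6 lower, against 19.6%. The list median was 0.05, against 0.03 over all genes, so the list as a whole was not shifted.

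Several of the widest rises belonged to genes of transport and of other tissues. Tmem178, a transmembrane protein gene, had the widest gap of the higher probe sets, 31.2-fold, with 30.8 and 49.5 in WT and 1864 and 3758 in DKO (log2 fold change 5.74 ± 0.45 SE, n = 2, limma adjusted p = 0.00781). Abca9, a lipid transporter gene of the ABCA family, read 5.08 and 7.48 against 384 and 433 (25-fold, limma adjusted p = 0.0179). Scnn1a, the alpha subunit of the epithelial sodium channel, read 22.3 and 54.2 against 911 and 2146 (30.6-fold, limma adjusted p = 0.0225). Both WT arrays were dim for all 3 genes and both DKO arrays far above them. Slc36a2, an amino acid transporter, read 48.7 and 90.2 in WT and 688 and 627 in DKO (8.64-fold). The membrane protein gene Ptgfrn read 14.2 and 7.11 against 204 and 237, while its second probe set did not separate the genotypes by 2-fold. St6gal1, which adds sialic acid to glycoproteins, read 27.2 and 35.6 against 405 and 327 at 1 of 2 probe sets.

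The remaining wide rises had mixed roles. Gas7, a cytoskeletal adaptor gene, read 51.3 and 88.0 against 1306 and 1335 (17.1-fold), and all 5 of its probe sets were 2-fold apart. Shisa2, an endoplasmic reticulum protein that holds back WNT and FGF receptors, read 20.6 and 25.2 against 445 and 427 (13.4-fold), and its second probe set passed as well. Tctex1d1, a dynein light chain family gene, read 111 and 175 against 1495 and 2641 (13.3-fold). For each of these 3 genes both DKO arrays lay far above both WT arrays. Gbp6, an interferon-inducible GTPase, read 3.95 and 6.45 in WT and 129 and 145 in DKO (9.43-fold, limma adjusted p = 0.0285). Hopx, a homeodomain protein without DNA binding of its own, rose from 20.9 and 68.0 to 447 and 544, and the glypican gene Gpc1 from 989 and 975 to 3654 and 4627.

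Promoters were searched for 3 short motifs on both strands in the 250 bases before each start: AGATAA, read by GATA factors, GGAANNGAA, an ETS-IRF composite, and GAAANNGAA, a core of the interferon response element. The last 2 share letters and can overlap. Sequences are those of RefSeq, build GRCm38.p6, and 17 of the 24 higher and 31 of the 43 lower genes matched that table. Shown are the windows of the higher gene with the widest gap and of Ccr2, which was chosen after the search because it holds all 3 motifs. Capitals mark matches, where TTATCT is AGATAA on the other strand.
Tmem178, chr17:80944382-80944631, plus strand: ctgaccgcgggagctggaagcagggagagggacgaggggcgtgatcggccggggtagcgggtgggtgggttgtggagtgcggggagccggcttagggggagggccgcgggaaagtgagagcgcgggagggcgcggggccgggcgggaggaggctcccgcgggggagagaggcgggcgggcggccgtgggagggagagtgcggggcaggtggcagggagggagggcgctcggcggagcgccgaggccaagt
Ccr2, chr9:124101933-124102182, plus strand: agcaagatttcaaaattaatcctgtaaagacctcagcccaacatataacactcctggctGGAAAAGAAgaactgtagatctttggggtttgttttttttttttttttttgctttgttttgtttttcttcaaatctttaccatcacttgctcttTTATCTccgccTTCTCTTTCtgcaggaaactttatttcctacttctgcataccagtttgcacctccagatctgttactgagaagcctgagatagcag
The Tmem178 window holds no match. The AGATAA motif was found in 9.99% of all 32851 windows, in 14.3% of the windows of higher genes and in 9.52% of those of lower genes. GGAANNGAA was found in 6.99% of all windows and in 4.76% of those of the higher and of the lower genes. GAAANNGAA was found in 7.13% of all and in 9.52% of both sets. A gene can have several windows. Counted by gene, AGATAA was found for 11.4% of all 27025 genes with a window, 17.6% of the higher and 12.9% of the lower ones. The lower genes thus lay below the share over all by window and above it by gene. For the other 2 motifs the side was the same by either count. With 21 windows of higher and 42 of lower genes, each share turns on a few windows.

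Eosinophil, basophil and mast cell genes were among the deepest falls. All 12 measured markers of these cells lay below WT, 11 without overlap of the arrays, where 19.6% of all genes lay lower without overlap. Of the 12, 8 were 2-fold apart and 3 passed the test, against 1.85% and 0.241% of all genes on the lower side. The list median was -3.15 log2 units. The summed intensity of the list was 15410 and 10487 in WT and 3014 and 2539 in DKO. In sorted populations such as this, fewer cells of a type and less RNA per cell cannot be told apart. Prg2, the eosinophil major basic protein gene, read 5863 and 3689 in WT against 121 and 17.9 in DKO (log2 fold change -6.25 ± 0.76 SE, n = 2, limma adjusted p = 0.0285). Cpa3, the mast cell carboxypeptidase gene, read 1526 and 537 against 11.9 and 10.9 (limma adjusted p = 0.0200). Ms4a2, the beta chain of the high-affinity IgE receptor, read 1584 and 1415 against 78.3 and 69.3 (limma adjusted p = 0.0447).

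Other members of that list lay low without passing. Prg3, a homologue of Prg2, read 876 and 402 in WT and 11.5 and 5.30 in DKO (limma adjusted p = 0.0521). The eosinophil peroxidase gene Epx read 697 and 363 against 1.70 and 62.4 (limma adjusted p = 0.213). Fcer1a, the alpha chain of the IgE receptor, read 211 and 210 against 3.31 and 4.46 (limma adjusted p = 0.119). Il5ra and Siglecf, also eosinophil genes, had the smaller differences of -0.79 and -0.27 log2 units.

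**Figure D3:**
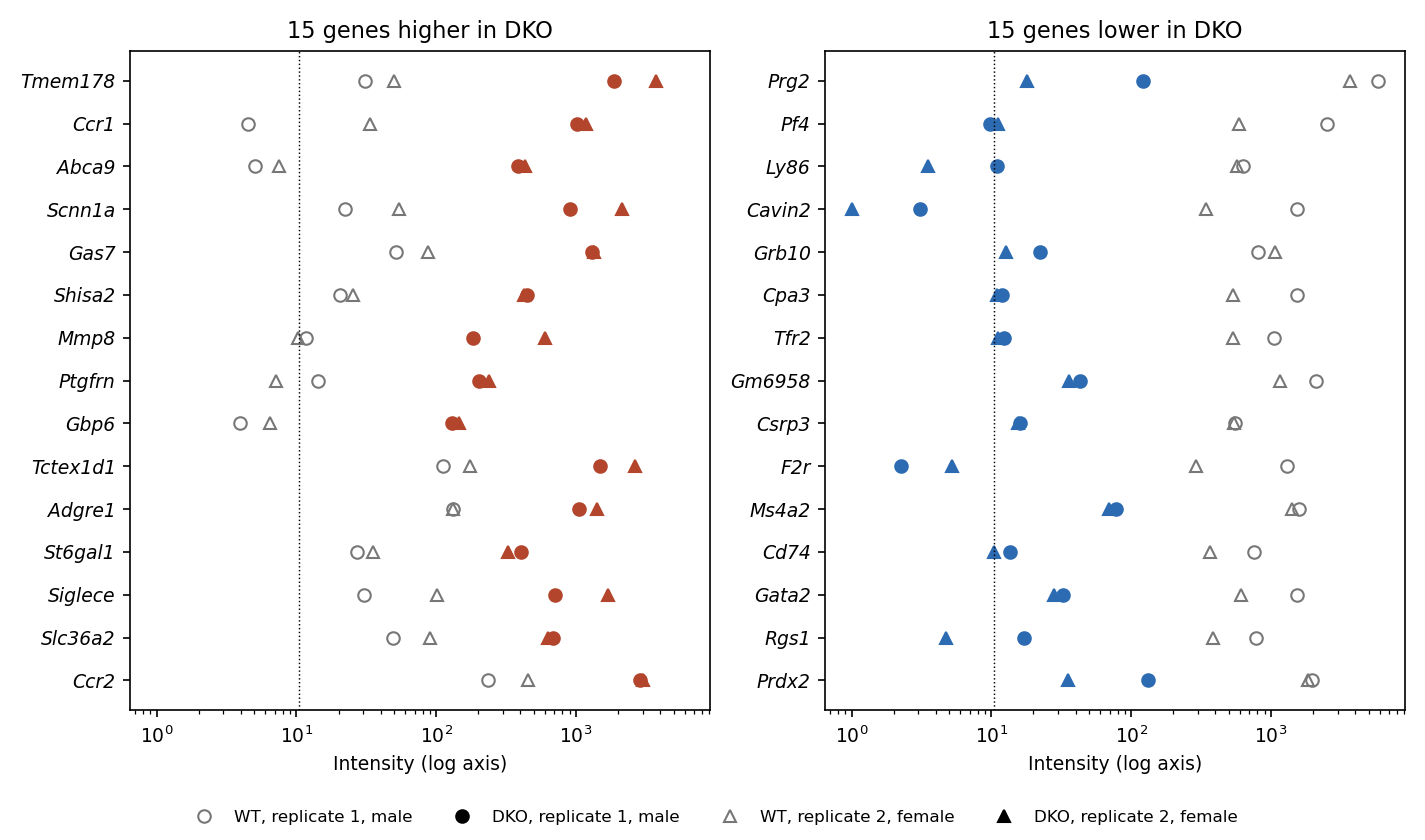
Intensity (log axis) of the 15 higher and 15 lower genes with the widest gap among those past the limma threshold, with open symbols for WT and filled symbols for DKO, circles for the male and triangles for the female array, and a dotted line at 10.5, the value added before the log. No gene drawn has a DKO array on the WT side, and several of the lower genes, such as Pf4 at 9.85 and 11.2, have DKO arrays near or left of the dotted line.

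Windows of 3 falling genes are shown next: Pf4, the falling gene with the widest gap in the promoter table, and the mast cell genes Cpa3 and Ms4a2, chosen after the search because theirs hold AGATAA.
Pf4, chr5:90772185-90772434, plus strand: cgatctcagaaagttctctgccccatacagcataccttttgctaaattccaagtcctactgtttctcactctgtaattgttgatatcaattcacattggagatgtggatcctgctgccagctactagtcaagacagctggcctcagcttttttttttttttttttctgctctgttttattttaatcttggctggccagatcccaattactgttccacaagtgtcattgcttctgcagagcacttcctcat
Cpa3, chr3:20242182-20242431, minus strand: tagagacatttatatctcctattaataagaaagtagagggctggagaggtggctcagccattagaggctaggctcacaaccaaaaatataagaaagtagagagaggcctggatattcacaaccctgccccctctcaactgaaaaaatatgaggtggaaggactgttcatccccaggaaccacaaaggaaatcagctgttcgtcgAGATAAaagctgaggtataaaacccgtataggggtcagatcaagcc
Ms4a2, chr19:11623720-11623969, minus strand: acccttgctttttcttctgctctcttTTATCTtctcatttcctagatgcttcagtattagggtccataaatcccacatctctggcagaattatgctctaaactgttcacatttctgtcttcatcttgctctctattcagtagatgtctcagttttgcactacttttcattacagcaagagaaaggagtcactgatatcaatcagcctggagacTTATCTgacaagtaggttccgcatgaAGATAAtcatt
The Ms4a2 window holds 3 matches to AGATAA, the Cpa3 window 1 and the Pf4 window none. A match is a description of the letters only.

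Megakaryocyte and platelet genes were low in both DKO arrays as well. Of 11 measured markers, 3 fell, 5 were 2-fold apart and 8 were lower without overlap. Over all genes, 0.241% fell past the test, 1.85% were 2-fold lower and 19.6% were lower without overlap. The list median was -1.55. The summed intensity was 7407 and 1961 in WT and 493 and 1292 in DKO, so the WT arrays themselves differed. Pf4, platelet factor 4, read 2516 and 590 against 9.85 and 11.2 (log2 fold change -5.88 ± 0.68 SE, n = 2, limma adjusted p = 0.0261). Cavin2, a coat protein gene of caveolae that platelets carry, read 1543 and 341 against 3.10 and 1 (limma adjusted p = 0.0443). The thrombin receptor gene F2r read 1294 and 292 against 2.25 and 5.19 (limma adjusted p = 0.0327), and both its probe sets were 2-fold apart. Itga2b, the platelet integrin gene, read 456 and 93.6 against 8.56 and 8.88 without passing (limma adjusted p = 0.103). Itgb3, its partner, read 954 and 298 against 298 and 1080 and Gp9 read 72.1 and 81.4 against 46.9 and 87.3, so both overlapped.

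Some red cell genes fell and others did not pass. Over 6 measured erythroid markers the median was -2.07, with 5 lower without overlap, 3 of them 2-fold apart and none past the test. Of all genes, 19.6% lay lower without overlap and 1.85% lay 2-fold lower. The summed intensity of the list was 4575 and 5056 in WT and 6036 and 4365 in DKO, so it overlapped. In every array most of that sum was 1 gene, Tfrc, described below. The other 5 markers were those that lay lower without overlap. Ermap, a list member, read 722 and 148 against 16.0 and 6.25, and Aqp1, another, 183 and 57.8 against 5.84 and 8.96. Outside that list, Tfr2, an iron sensor gene of the transferrin receptor family, fell at both probe sets, the first from 1047 and 536 to 12.3 and 11.1 (34.3-fold, limma adjusted p = 0.0285). The globin gene Hbb-b2 fell from 234 and 158 to 5.78 and 1.79 (limma adjusted p = 0.0285), though its probes may also read near-identical globin copies. Slc14a1, the red cell urea transporter, fell from 762 and 162 to 8.10 and 6.96 at the probe set that passed (limma adjusted p = 0.0478), and the other read 534 and 117 against 25.5 and 25.9, also 2-fold apart. Car2, a carbonic anhydrase gene, read 4116 and 1773 against 143 and 56.1 (limma adjusted p = 0.0518) and Car1 578 and 143 against 20.4 and 18.9. Within the list of 6, Tfrc, which all dividing cells use to take up iron, was the 1 marker with a fold change above 0. It read 3158 and 4677 against 5942 and 4271, so its arrays overlapped. Prdx2, an antioxidant enzyme of red cells, differed between its probe sets, since 1 fell from 1959 and 1828 to 131 and 35.4 (limma adjusted p = 0.0285) while the brighter one had a log2 fold change of -0.09.

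Some transcription factors of early and erythro-megakaryocytic progenitors fell, while none of the granulocyte-monocyte factors passed. Gata2, needed by stem cells, mast cells and early progenitors, read 1533 and 615 in WT and 32.3 and 28.1 in DKO (24.2-fold lower, limma adjusted p = 0.0285), with its second probe set also 2-fold apart. Ikzf2, the Ikaros family member Helios, read 404 and 291 against 26.2 and 16.7 (limma adjusted p = 0.0285), and all 3 of its probe sets were 2-fold apart. These were the 2 called of 16 measured GATA and erythro-megakaryocytic factors, where 0.241% of all genes were called lower. Gata1 and Gfi1b were the other 2 that lay 2-fold lower, where 1.85% of all genes did. Gata1 read 282 and 61.1 against 2.64 and 4.98 (limma adjusted p = 0.103). Dach1, a nuclear co-repressor gene, read 2272 and 1226 against 94.3 and 42.7 (22.5-fold lower, limma adjusted p = 0.0327). Aff3, a gene of the super elongation complex family, fell from 1186 and 642 to 66.4 and 15 (limma adjusted p = 0.0407).

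Several stem cell factors were lower without passing. Meis1, a HOX cofactor, read 797 and 347 in WT and 26.1 and 26.6 in DKO (limma adjusted p = 0.113), and its 3 probe sets were all 2-fold apart. Mecom, the gene of EVI1, read 129 and 77.4 against 11.5 and 8.34 (limma adjusted p = 0.0521). Hoxa9 read 1842 and 1566 against 615 and 109 and Hlf 1222 and 666 against 275 and 69.0. In 24 measured HOX, MEIS and stem cell factors these were the 4 that lay 2-fold lower, where 1.85% of all genes did. Hopx was the 1 that rose. The receptor gene Tek, which codes for TIE2, fell from 250 and 152 to 5.77 and 4.12 (limma adjusted p = 0.0225). Its ligand gene Angpt1 fell from 573 and 254 to 16.4 and 16.4 (limma adjusted p = 0.0285), with both probe sets 2-fold apart. Among 19 C/EBP, PU.1 and granulocyte-monocyte factors none passed. Without overlap, 10 of the 19 lay higher, against 21.1% of all genes, and 2 lower, against 19.6%. Cebpa read 2759 and 4229 against 4252 and 5086, Spi1, the gene of PU.1, 949 and 798 against 911 and 3301, and Klf4, a monocyte factor, 280 and 460 against 91.5 and 61.8.

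Antigen presentation genes passed the test only at single members. Cd74, the invariant chain of MHC class II, fell from 754 and 365 to 13.6 and 10.4 (23.9-fold, limma adjusted p = 0.0293). H2-Aa, a class II alpha chain, fell from 207 and 174 to 10.8 and 12.7 (limma adjusted p = 0.0285), and a second of its 3 probe sets passed. In the IRF8 KO arrays this H2-Aa probe set read 120 and 156, a difference from DKO that was not tested here. H2-Ab1, the beta chain that pairs with H2-Aa, read 796 and 532 in WT and 464 and 1108 in DKO and so overlapped. Ciita, the regulator of class II genes, was dim at 16.2 and 13.6 against 26.9 and 19.4. H2-Eb1, another class II beta chain, read 41.73 and 62.94 against 6.83 and 6.35, 2-fold apart without passing (limma adjusted p = 0.113). H2-Ob read 302.1 and 64.2 against 34.95 and 20.05, lower without overlap (limma adjusted p = 0.37). Over 13 class II genes and regulators 2 fell past the test, against 0.241% of all genes. Of the 13, 3 were 2-fold apart and lower, against 1.85% of all genes. Without overlap, 4 of the 13 lay lower, against 19.6% of all genes, and 1 higher, against 21.1%. The list median was 0.17. That median was -0.15 without WT array 2, -0.09 without DKO array 1 and -0.18 without DKO array 2, so it has no settled sign. No class I or peptide loading gene passed of 12, and 6 lay higher without overlap, where 21.1% of all genes did.

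Among pattern receptors, 1 partner gene fell and 1 rose. Ly86, the gene of MD-1, the partner of the receptor CD180, read 626 and 575 in WT and 11 and 3.52 in DKO (log2 fold change -5.14 ± 0.40 SE, n = 2, limma adjusted p = 0.00781). Cd180 itself read 400 and 197 against 212 and 241. Of 20 measured Toll-like receptors and partners, Ly86 fell and Cd14 rose, and the list median was 0.65. Over the list, 10 of the 20 lay higher without overlap, against 21.1% of all genes, and 4 lower, against 19.6%. Tlr6, a partner of Tlr2, read 34.2 and 27.7 in WT and 85.2 and 143 in DKO, 2-fold apart without passing (limma adjusted p = 0.531). Tlr1 and Tlr5 also lay higher without overlap. Tlr4 read 211 and 477 against 716 and 385, and Tlr2 read 61.0 and 128 against 110 and 377, so both overlapped.

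Falls among signalling and trafficking genes were spread over many families. Grb10, an adaptor that dampens insulin-type receptors, read 805 and 1062 in WT and 22.1 and 12.7 in DKO at its brightest probe set (34.0-fold lower, limma adjusted p = 0.0225). Of its other 2 probe sets 1 was 2-fold apart and 1 had a log2 fold change of -0.13. Rgs1, which turns off chemokine receptor signals, read 777 and 386 against 17.2 and 4.76 (27.2-fold lower, limma adjusted p = 0.0444). The LIM protein gene Csrp3, best known from muscle, read 553 and 544 against 15.9 and 15.5 (limma adjusted p = 0.0118). Gm6958, a predicted gene, read 2099 and 1161 against 42.8 and 35.9 at 1 probe set and 4136 and 2657 against 613 and 379 at the other, and both passed. Rab38, a small GTPase of lysosome-related organelles, fell at both probe sets, from 1333 and 1123 to 103 and 21.9 at the first.

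Other called falls took in the WNT receptor gene Fzd6 (133 and 110 against 3.84 and 9.68), the ribonuclease gene Rnase6 (368 and 156 against 7.14 and 9.80) and the amino acid transporter gene Slc7a8 (209 and 134 against 4.37 and 11.8). Also lower were the keratin gene Krt18, the elongation factor gene Ell2, the glycosyltransferase gene Gcnt2, the potassium channel gene Kcnj5, the receptor gene Slamf8, the proteoglycan gene Sdc2 and the lipid hydrolase gene Faah. Cavin1, which works with Cavin2 at caveolae, fell from 216 and 100 to 5.15 and 4.01 at 1 probe set, while its other had a log2 fold change of 0.42. Cavin1 was the exception among 34 called genes with several kept probe sets, of which 33 had all of them on the same side and 21 had all of them 2-fold apart.

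Genes measured by several probe sets give a check within each array. Of 6271 such genes, 18 were higher and 47 lower with every kept probe set 2-fold apart. Of these 65 genes, 21 had a probe set past the test and 44 did not, 11 higher and 33 lower. Among the higher ones without a call, the integrin gene Itgb5 had 4 such probe sets, the faintest reading 22.0 and 26.1 against 86.1 and 175. The protein kinase C gene Prkcb read 731 and 683 against 1883 and 1992 and the receptor gene Notch1 331 and 327 against 710 and 1363. Lrp1, a receptor for lipoproteins and proteases, read 82.6 and 56.4 against 442 and 486. On the lower side, the clathrin uncoating factor gene Dnajc6 had 4 such probe sets, the brightest at 854 and 664 against 180 and 22.5. The repressor gene Zeb1 read 486 and 314 against 96.8 and 28.7, and Plek, a platelet and leukocyte kinase substrate, 1680 and 594 against 134 and 159. Adhesion G protein-coupled receptors also showed this, since Adgrl1, Adgrl2 and Adgrg1 each lay lower at every kept probe set while Adgre1 rose.

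Large families of cell growth stayed near the centre of all genes. The median was 0.09 over 45 cytosolic ribosomal proteins, 0.04 over 38 proteasome subunits and 0.12 over 96 respiratory chain genes. It was -0.06 over 32 cyclins and their kinases and -0.11 over 86 genes of mitosis and DNA replication. No gene of these 5 lists passed the test. The medians of the proteasome list after quantile normalization and of the cyclin and mitosis lists after median centring had the other sign. Among 220 solute carriers the median was -0.02, and 0.20 after median centring. Slc36a2 was higher past the test, and Slc7a8 was lower, as were Slc14a1 and Slc45a3 at 1 of their 2 probe sets each. Over 29 cytokine and growth factor receptors the median was 0.49, and Tek was the one that passed. Of the 29, 17 lay higher without overlap, against 21.1% of all genes, and 6 lower, against 19.6%.

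**Figure D4:**
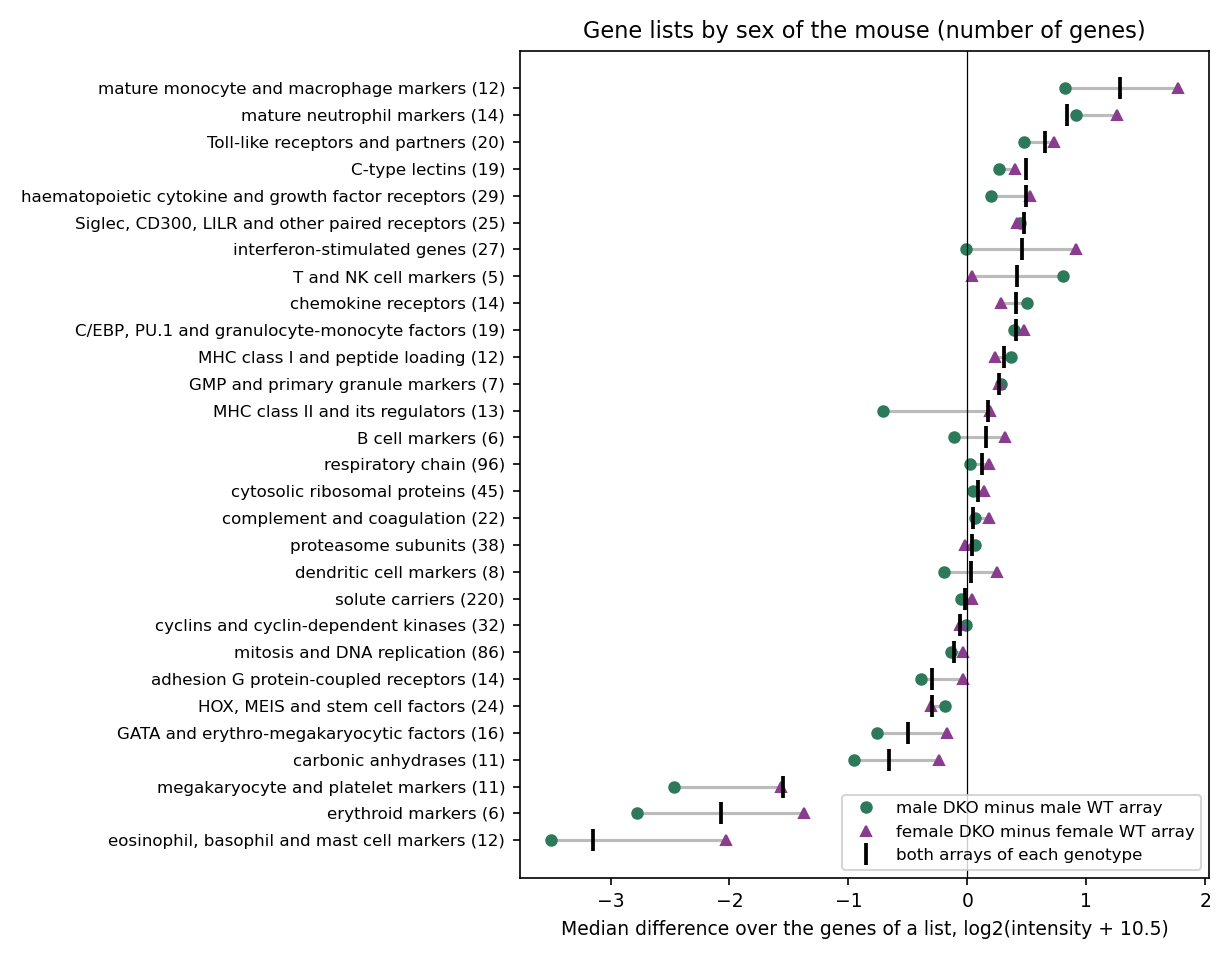
Median difference over the genes of each list, on the log2(intensity + 10.5) scale, between the male arrays (circles), between the female arrays (triangles) and with both arrays of each genotype (bars), with the number of genes in brackets. The eosinophil, basophil and mast cell list lay at -3.50 between males and -2.03 between females, and interferon-stimulated genes at -0.01 and 0.91.

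Since each genotype had a male and a female mouse, the difference can be read within each sex from 1 array of each genotype. Over all genes the median was -0.01 between the males and 0.06 between the females. The erythroid list lay at -2.78 between males and -1.37 between females, and the megakaryocyte list at -2.47 and -1.57. The monocyte and macrophage list lay at 0.82 and 1.77. Sex, age and mouse differ together between these pairs and cannot be told apart. Since the arrays of called genes did not overlap, their direction is the same in both sexes by construction, and only the size can differ. Csrp3 had a log2 difference of -4.41 in both, while Pf4 had -6.96 between males and -4.79 between females, and Mmp8 had 3.12 and 4.87.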

How the data were processed

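RNA of 6 sorted GMP samples was measured on Affymetrix Mouse Genome 430 2.0 arrays, from biotin-labelled cRNA of 10 ng of total RNA per the labels' protocols. The deposited files hold linear intensities. The authors obtained them in dChip 1.3 by its model of perfect-match minus mismatch probes, after normalization, per the design text. How arrays were normalized, floored or filtered is not recorded in the labels used. Intensities ran from 0.69 to 16563 and carry no detection call. There is no depth for arrays, so precision is limited by how many there are.

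The analysis used log2(intensity + 10.5), the added value being the 25th percentile over the table. Probe sets were kept where at least 2 of 6 arrays exceeded the array's 40th percentile, leaving 29783 of 45037. A single limma fit (limma 3.58.1, R 4.3.3, empirical Bayes with a trend, no covariates) covered all 3 genotypes and was tested on simulated data. Symbols came from GEO's platform annotation, checked by gene identifier against RefSeq genes of GRCm38.p6: 34945 probe sets had 1 symbol, 932 several and 9160 none, and the latter 2 kinds were not named. A gene in a list is its brightest kept probe set.

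The members, the gene lists and the rules were chosen with earlier results of these data known, and lists carry no test. Named were Irf8 and Irf4, genes past the threshold (the 15 higher and 15 lower with the widest gap with every array), the lowest adjusted p-values of each list (up to 4 genes), genes whose probe sets were all 2-fold apart, gate and lineage markers and sex-linked genes. Members of a marker list named beyond these, such as Lcn2, Itgb3, Gp9, Il5ra, Siglecf and Tfrc, were chosen after their values were seen.

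Same-numbered arrays of WT and DKO deviated together only weakly (r = 0.187), and the labels state no pairing. Alternatives were 2 other pseudocounts, other filters, quantile normalization, median centring, other variance settings, a fit of WT and DKO only, sex, age or replicate number as a term, and leaving out each array.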

Additional observations from a re-analysis of the deposited data

Results flagged for a closer look

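For 6 of the lists described, the difference between the male arrays and that between the female arrays had opposite signs. Each rests on 1 array per sex and genotype, and the difference between the sexes was not tested. The MHC class II list had a median of -0.71 between males and 0.19 between females, and dendritic cell markers had -0.20 and 0.25. The B cell markers had -0.11 and 0.32. The interferon-stimulated genes had -0.01 and 0.91, with DKO array 2 at a summed intensity of 30293 and the other arrays of WT and DKO at 16990 to 18580. For solute carriers (-0.05 and 0.04) and proteasome subunits (0.06 and -0.02) both medians lay close to 0.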

How the results depend on the processing

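The 89 calls are sensitive to the model. There were 13 with no filter, 45 after median centring and 27 with no variance trend, all among the 89. There were 476 with only WT and DKO fitted and 229 with age as a covariate, which contained all 89. Replicate number joins arrays of the same sex for WT and DKO but not for IRF8 KO. With it as a replicate block there were 216 calls, and 1707 with the block and only WT and DKO fitted, again with all 89 among them. With sex as a block there were 0, and the smallest adjusted p was 0.0659. Leaving out 1 array gave 0 to 484 calls: 0 without either WT or either DKO array, where 1 array stands for its genotype, and 469 and 484 without an IRF8 KO array. The other pseudocounts, the stricter filter, quantile normalization and a robust variance gave 63 to 93. The 993 probe sets 2-fold apart became 482 with a pseudocount of 39.23, and 1430 to 4535 with 1 array left out, since fewer arrays must then differ. The cause of the other changes was not tested.

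No called gene changed sign under any setting. For most settings this was fixed in advance. The arrays of called genes did not overlap, so leaving out an array could not turn the sign. Filters and variance settings leave the difference itself unchanged. Of the other named genes, 6 changed sign when 1 array was left out: Irf8 (-0.11 to 0.76 over such settings), H2-Ab1 (-0.48 to 0.76), Il7r (-1.0 to 0.15), Cd180 (-0.80 to 0.19), Gp9 (-0.60 to 0.17, and 0.00 after median centring) and Itgb3 (-0.82 to 1.0). Of 29 list medians, 12 changed sign under at least 1 of 11 settings. The T and NK list (0.42) became -0.11 with no filter, the class II list (0.17) -0.18 to -0.09 without WT array 2 or either DKO array, and the dendritic list (0.03) -0.27 to -0.04 in 2 such settings. The others lay within 0.30 of 0.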
